A study of Mus musculus with 34 samples.

Results

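Open chromatin that appears in sperm without an open site in the meiotic fraction or round spermatids was described here as sperm-first sites, the peaks of SV129 sperm that overlap no subnucleosome peak of those earlier stages. They were selected on 5 deposited peak lists: every peak of the SV129 sperm list on chromosomes 1 to 19 that shares no base with a peak in the meiotic (MS) or round spermatid (RS) lists of SV129 mice or of C57BL6 mice with intact Gcn5 (WT). By this rule 4898 of 10495 autosomal sperm peaks, 46.7%, were sperm-first, and the remaining 5597 peaks are called other sperm peaks.

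The series measured chromatin accessibility by paired-end ATAC-seq, where the transposase Tn5 inserts adapters into exposed DNA, in 34 libraries of male germ cells. They fall into 12 groups, 4 stages (MS, RS, elongating spermatids, ES, and mature sperm, Sp) in 3 backgrounds. In the cKO, floxed alleles of Gcn5, a histone acetyltransferase gene, were homozygous and deleted in a C57BL6 background by Cre under the Stra8 promoter, which acts in germ cells entering meiosis. WT mice were C57BL6 GCN5+/+, and SV129 mice, 8 to 12 weeks old, have no engineered allele named in the labels. No age is given for the cKO and WT mice. The SV129 sperm list stands for 6 libraries and the cKO and WT sperm lists for 2 each. Each SV129 collection pooled 11 mice, immature cells were fractions of at least 85% purity, and sperm came from the cauda epididymis after treatment with a buffer that lyses somatic cells, although the tissue label reads testes.

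During spermiogenesis most histones give way to transition proteins and then to protamines, which pack the sperm genome tightly, and only a small part of it keeps nucleosomes. Short ATAC fragments mark DNA free of nucleosomes, often promoters and enhancers, while longer fragments mark positioned nucleosomes. Sperm are held in the epididymis, a duct lined by an epithelium, before they are released.

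The authors deposited 1 list of subnucleosome peaks and 1 list of nucleosome calls per group, 24 in all, so no value has a replicate and no test between groups was possible. Shares are given with Wilson 95% confidence intervals, and differences between shares with Newcombe 95% intervals. Both cover counting error only and treat peaks as independent. Read depth is unknown, and the lists differ in length. On the autosomes the cKO, WT and SV129 sperm lists hold 1050, 2957 and 10495 peaks, and the ES lists hold 401, 467 and 692.

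"First seen" holds for the 4 lists of the rule. In the ES lists, 58 sperm-first sites (1.18%) had a peak in at least 1 background, and 7 had a peak in the cKO meiotic list. The median distance from a sperm-first site to the nearest MS or RS peak was 9603.5 bp, and 250 sites (5.10%) lay under 500 bp from one. At the edge of the rule, 6 sites lay within 10 bp of an earlier peak, the closest at 7 bp, while 9 other sperm peaks overlapped one by at most 10 bp.

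Sequences are shown for promoters with a sperm-first site, to let its position and base content be seen, beside 1 promoter whose peak was already present at MS or RS. Windows run from 250 bases before a start to 50 after it and were taken from RefSeq, build GRCm38.p6. Capitals mark the bases inside the sperm peak. The windows were chosen after their values were seen, by the bases that the peak covers. The first set holds 3 sites that were also found in WT sperm. Il17re encodes a receptor subunit for interleukin 17C, Map3k6 a stress-responsive kinase and Pld1 a phospholipase. The nearest MS or RS peak lay 15762, 297 and 4605 bp from their sites, in that order. Their windows are chr6:113458521-113458820, chr4:133240568-133240867 and chr3:27983921-27984220, all on the plus strand. Il17re is among the 20 genes, given below, with a WT-shared site within 500 bp of an annotated gene end. Map3k6 and Pld1 are not among them, so their windows stand at other annotated starts and are outside the gene-end counts.
Il17re: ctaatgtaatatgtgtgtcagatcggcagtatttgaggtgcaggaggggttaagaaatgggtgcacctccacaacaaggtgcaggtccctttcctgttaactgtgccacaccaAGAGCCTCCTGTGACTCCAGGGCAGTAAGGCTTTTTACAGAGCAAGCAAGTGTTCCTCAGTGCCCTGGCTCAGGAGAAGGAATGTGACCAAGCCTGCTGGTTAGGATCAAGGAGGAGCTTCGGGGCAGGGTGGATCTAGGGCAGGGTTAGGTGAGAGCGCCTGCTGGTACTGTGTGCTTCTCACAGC
Map3k6: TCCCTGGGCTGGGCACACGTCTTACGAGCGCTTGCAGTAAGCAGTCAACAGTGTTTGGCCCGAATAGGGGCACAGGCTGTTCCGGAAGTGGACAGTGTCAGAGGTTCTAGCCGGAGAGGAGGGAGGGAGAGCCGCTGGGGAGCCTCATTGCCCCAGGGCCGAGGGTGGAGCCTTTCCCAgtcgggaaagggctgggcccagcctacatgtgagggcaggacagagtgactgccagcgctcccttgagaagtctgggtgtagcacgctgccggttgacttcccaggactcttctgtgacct
Pld1: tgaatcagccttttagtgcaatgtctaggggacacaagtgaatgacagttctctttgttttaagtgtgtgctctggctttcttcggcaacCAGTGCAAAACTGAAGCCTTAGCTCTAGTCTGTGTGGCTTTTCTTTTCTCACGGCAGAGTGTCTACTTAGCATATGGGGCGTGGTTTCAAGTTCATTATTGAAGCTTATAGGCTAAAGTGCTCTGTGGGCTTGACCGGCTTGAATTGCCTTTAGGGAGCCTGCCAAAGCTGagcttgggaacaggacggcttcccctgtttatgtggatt
The second set holds genes from a list of epithelial markers. Cldn3 encodes a tight junction claudin, Elf3 an ETS transcription factor of epithelia and Krt8 a keratin of simple epithelia. The nearest MS or RS peak lay 15101, 129 and 896 bp from their sites, in that order. Their windows are chr5:134985964-134986263 on the plus strand, and chr1:135258423-135258722 and chr15:102004293-102004592 on the minus strand.
Cldn3: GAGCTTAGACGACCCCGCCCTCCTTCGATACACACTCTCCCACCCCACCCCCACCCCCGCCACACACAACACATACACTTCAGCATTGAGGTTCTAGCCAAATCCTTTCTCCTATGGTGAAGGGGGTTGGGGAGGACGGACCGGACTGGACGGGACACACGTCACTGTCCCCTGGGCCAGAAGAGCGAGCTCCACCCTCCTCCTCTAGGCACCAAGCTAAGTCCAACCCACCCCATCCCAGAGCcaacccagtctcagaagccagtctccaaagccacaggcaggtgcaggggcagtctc
Elf3: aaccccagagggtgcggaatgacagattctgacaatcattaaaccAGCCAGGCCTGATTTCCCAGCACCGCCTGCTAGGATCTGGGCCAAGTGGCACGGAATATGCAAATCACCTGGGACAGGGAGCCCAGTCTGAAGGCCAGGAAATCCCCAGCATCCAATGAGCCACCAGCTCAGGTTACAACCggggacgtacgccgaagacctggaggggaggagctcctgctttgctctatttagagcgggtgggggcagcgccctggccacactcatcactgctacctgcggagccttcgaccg
Krt8: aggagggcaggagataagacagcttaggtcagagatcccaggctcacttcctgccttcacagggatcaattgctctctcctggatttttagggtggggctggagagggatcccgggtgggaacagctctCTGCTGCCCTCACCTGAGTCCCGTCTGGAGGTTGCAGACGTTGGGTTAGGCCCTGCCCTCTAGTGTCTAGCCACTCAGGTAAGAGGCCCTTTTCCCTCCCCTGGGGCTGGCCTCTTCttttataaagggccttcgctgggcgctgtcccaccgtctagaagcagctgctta
The promoter of Canx, which encodes the endoplasmic reticulum chaperone calnexin, carries an other sperm peak. Its window is chr11:50325624-50325923 on the minus strand.
Canx: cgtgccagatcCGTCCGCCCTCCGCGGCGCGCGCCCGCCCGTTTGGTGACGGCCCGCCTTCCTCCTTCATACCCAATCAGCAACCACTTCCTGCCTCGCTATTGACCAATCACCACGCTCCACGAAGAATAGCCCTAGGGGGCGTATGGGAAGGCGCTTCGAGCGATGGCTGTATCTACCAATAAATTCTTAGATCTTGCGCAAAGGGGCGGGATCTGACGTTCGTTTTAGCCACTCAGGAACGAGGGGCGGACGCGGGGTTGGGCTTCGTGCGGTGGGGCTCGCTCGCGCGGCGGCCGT
The Canx window, picked from a list of housekeeping genes, holds 35 CpG dinucleotides. That is more than is typical of windows with an other sperm peak, which have a median of 24 and an upper quartile of 30. The windows of Map3k6 and Elf3 hold 12, Cldn3 has 9, Krt8 has 6, Pld1 has 5 and Il17re has 3.

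Few sperm-first sites recurred in the sperm lists of the other backgrounds. In the cKO sperm list 23 of 4898 had a peak, 0.470% (interval 0.313 to 0.704), against 944 of the 5597 other sperm peaks, 16.9%. The difference was -16.4 percentage points (interval -17.4 to -15.4), and 9.21% of all autosomal SV129 sperm peaks had a cKO peak. In the WT sperm list 366 had a peak, 7.47% (interval 6.77 to 8.24), against 1601 other sperm peaks, 28.6%. That difference was -21.1 points (interval -22.5 to -19.7), beside 18.7% of all SV129 sperm peaks. Only 3 sperm-first sites, 0.0612%, were in both lists, compared with 513 other sperm peaks, 9.17%. The cKO list is the shortest of the 3, and its length and the genotype cannot be told apart.

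**Figure D1:**
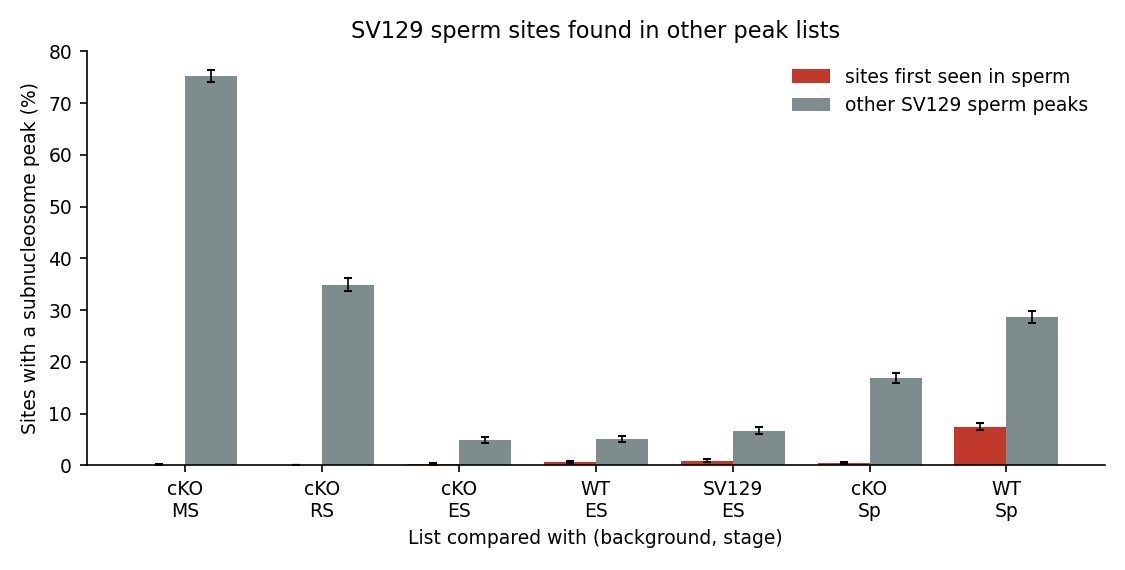
Share of sperm-first sites (n = 4898, red) and of other SV129 sperm peaks (n = 5597, grey) that have a subnucleosome peak in each list not used by the rule, with Wilson 95% intervals. Sperm-first sites reach 7.47% in WT sperm and reach at most 0.898% in the other lists shown.

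Seen from the other lists, the rule left 37 of 1050 cKO sperm peaks (3.52%) and 855 of 2957 WT sperm peaks (28.9%) without an MS or RS peak. Of those 855 WT peaks, 361 (42.2%, interval 39.0 to 45.6) overlapped an SV129 sperm-first site, while 1603 of the 2102 remaining WT peaks (76.3%) overlapped an SV129 sperm peak. Among the WT peaks the median deposited score was 6.22 at SV129 sperm-first sites, 6.23 at the other WT peaks without an MS or RS peak and 7.81 at the remaining ones. Of the 37 cKO peaks, 22 overlapped an SV129 sperm-first site, and 19 had a peak in an ES list.

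Sperm-first sites were narrow. Their median width was 126 bp, with a maximum of 533 bp, against 154 bp and 4567 bp for the other sperm peaks. The share found in WT sperm was higher among wider sites: 4.51% at 73 to 91 bp, 5.56% at 92 to 126 bp, 6.99% at 127 to 171 bp and 12.9% at 172 bp or more. The other sperm peaks of the same widths had shares of 14.6%, 19.5%, 24.7% and 40.3%. The difference at 172 bp or more was -27.4 points (interval -30.1 to -24.6). Distance to an earlier peak made less difference, with WT shares of 7.20% under 500 bp and 7.97% beyond 50000 bp.

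**Figure D2:**
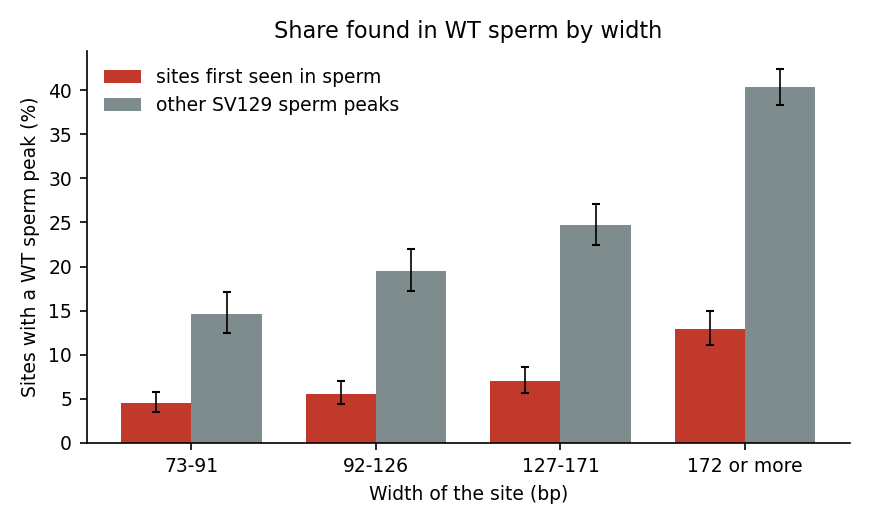
Share of sperm-first sites (red) and other SV129 sperm peaks (grey) with a WT sperm peak, in 4 width classes in bp, with Wilson 95% intervals. In each class the sperm-first bar is the lower, from 4.51% in the narrowest to 12.9% in the widest.

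Of the 23 sites shared with cKO sperm, 0 were centred at a gene end and 17 lay outside genes, against 19 and 155 of the 366 shared with WT sperm. A peak in an ES list was present at 16 of the 23, against 3 of the 366, and 8 lay under 500 bp from an earlier peak. In 9 cases the site started between bases 3000000 and 3500000 of its chromosome, and no sperm-first site of any chromosome starts before base 3004261. Whether the build allows a peak before that base was not examined, so this start is not read as a trait of the sites. That stretch holds 37 sperm-first sites in all. The 3 sites found in all sperm lists were chr8:23095475-23095659 in the body of Ank1, an erythroid and muscle ankyrin gene, and chr9:3020191-3020278 and chr9:3028541-3028624, whose nearest gene, Alkbh8, is 314952 and 306606 bp away. The Ank1 site had a peak in the WT ES list, and both chromosome 9 sites in the WT and SV129 ES lists. They are thus the 3 of the 366 with an ES peak, and they are counted among the 23 as well.

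Sperm-first sites lay mostly away from gene ends. With a gene end taken as the window reaching 500 bp to each side of an annotated end of a protein-coding gene, 246 (5.02%, interval 4.45 to 5.67) were centred there, against 3823 other sperm peaks (68.3%) and 38.8% of all SV129 sperm peaks. Gene bodies held 2397 sperm-first sites (48.9%), against 18.5% of other sperm peaks, and 2255 (46.0%) lay outside genes, against 13.2%. Gene ends make up 1.59% of autosomal sequence, so sperm-first sites were 3.17 times as frequent there as in the sequence, other sperm peaks 43.1 times. In gene bodies the sperm-first ratio was 1.25 and outside genes 0.776. MS and RS peaks were found at an end of 11389 of 20665 genes (55.1%), so removing them by the rule also removes gene ends, and no test of location was made.

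**Figure D3:**
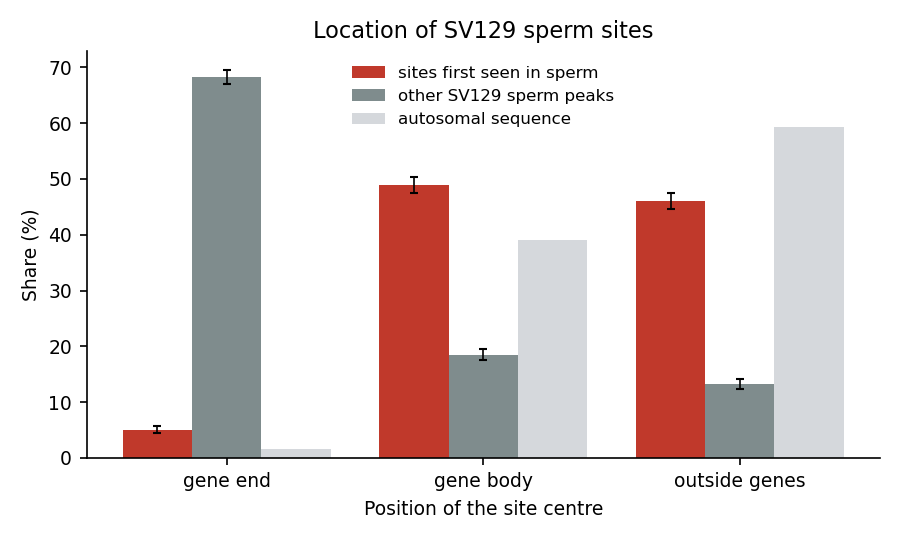
Share of sperm-first sites (red), other SV129 sperm peaks (grey) and autosomal sequence (light) by position of the site centre, with Wilson 95% intervals for peaks. Gene ends hold 5.02% of sperm-first sites and 68.3% of other sperm peaks.

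The median distance to the nearest gene end was 20715.5 bp for sperm-first sites and 25 bp for other sperm peaks. The location of a site made little difference to its share in WT sperm, which was 7.72% at gene ends, 8.01% in gene bodies and 6.87% outside genes. Sites with and without a WT peak also had like positions: 5.19% and 5.01% at gene ends, a difference of 0.182 points (interval -1.78 to 3.02). An lncRNA gene was overlapped by 590 sperm-first sites (12.0%), against 12.0% of other sperm peaks, and lncRNA genes cover 8.71% of the sequence. Transfer RNA genes were overlapped by 3 sperm-first sites and 20 other sperm peaks.

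Sperm-first sites were spread evenly over most autosomes. They numbered from 0.978 per Mb on chromosome 19 to 2.25 per Mb on chromosome 2, with a mean of 1.99, while other sperm peaks ranged from 1.67 to 3.29 per Mb. Across the 19 autosomes, density followed gene density with r = -0.232 (rank correlation 0.0649) for sperm-first sites and r = 0.803 (rank correlation 0.839) for other sperm peaks. These are descriptions, since the chromosomes share 1 list. Chromosome 19 had 60 sites, of which 13 (21.7%) were in WT sperm. Most sites stood alone, and 4299 (87.8%) had no other within 10000 bp. The largest group was 5 sites in 13176 bp on chromosome 14, nearest LOC115485924. A group of 4 in 24169 bp on chromosome 9 included 3 found in cKO sperm and 2 in WT sperm. Near Nfib, a nuclear factor I transcription factor gene, 3 sites lay within 2698 bp and none was in either list.

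A sperm-first site lay in the body of 2031 genes, whose median length was 73.8 kb, against 17.5 kb for all genes. Auts2, a neurodevelopmental gene, and Kalrn, which encodes a guanine nucleotide exchange factor, held 7 each, and Arhgap26, a GTPase-activating protein gene, held 6. Per length these are 6.33, 11.6 and 7.75 sites per Mb, beside 2.66 for all protein-coding genes with 10000 bp on either side. These genes were ranked by count, and a longer gene offers more sequence to hold a site. Neither the length contrast nor these densities is therefore read as a trait of the genes. Of the widest sites, the one of 533 bp lay in Tbc1d1, a Rab GTPase-activating protein gene. One of 501 bp lay at an end of Igsf5, an immunoglobulin superfamily gene, and one of 464 bp in Ppp1r16b, a phosphatase regulator gene. Of these 3 the Ppp1r16b site was in WT sperm. Those nearest Gm5724 and Kcnk2, a potassium channel gene, were 459 and 458 bp wide and in neither list.

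At least 1 sperm-first site lay at an end of 280 of 20665 autosomal protein-coding genes (1.35%), and an other sperm peak at an end of 4319 (20.9%). Both kinds were found at 28 genes. An MS or RS peak lay elsewhere at the ends of 103 of the 280 genes, and 177 had none. Where strand was known, 162 genes had the site at the start and 47 at the 3′ end. A WT sperm peak overlapped the site at 20 genes, a cKO sperm peak at 0. These 20 were named after their values were seen. The highest WT score among them, 16.1, was at Ticam1, which encodes an adaptor of Toll-like receptors, where the site chr17:56276848-56277087 shared 182 bp with the WT peak. At Sptlc3, a serine palmitoyltransferase subunit gene, 151 bp were shared, and at Il17re, shown above, 142 bp. Others were Il17rb, a second interleukin 17 receptor gene, Atp2b4, a plasma membrane calcium pump gene used in sperm motility, and Arid2, a chromatin remodelling subunit gene.

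The lists of germ cell and developmental genes are short beside the 1.35% of all genes with a sperm-first site at an end, so counts of 0 or 1 in them are near that share. None of 47 meiotic, 97 developmental transcription factor or 39 Hox genes had one at an end. Nor did any of the longer list of 1456 olfactory and vomeronasal receptor genes. Other sperm peaks were also rare there, at 2 of the 1456 (0.137%) against 20.9% of all genes. MS or RS peaks lay at the ends of 30 of them. Of 63 spermatid genes 1 had a sperm-first site at an end, Rsph1, an axonemal radial spoke gene. MS or RS peaks lay at the ends of 39 of the meiotic and 55 of the spermatid genes. Gapdh was the 1 of 47 housekeeping genes, against 28 with an other sperm peak. Inpp5f was the 1 of 41 imprinted genes, and Nanog, a homeobox gene of pluripotent cells, the 1 of 30 pluripotency genes, with a site of 75 bp at its start. Of 455 zinc finger genes 14 had a sperm-first site (3.08%), against 157 with an other sperm peak. Those at Zfp64, Zfp947 and Zfp994 lay at the start, and that at Zbtb22 at the 3′ end. None of these sites had a WT or cKO sperm peak, which 7.88% of all sperm-first sites had.

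Markers of cells that a preparation from the cauda could hold were counted in the same way. Of 40 epithelial genes (clear, basal and general epithelial markers) 5 had a sperm-first site at an end (12.5%), beside the 1.35% of all genes, and 1 had an other sperm peak. They included Cldn3, with a site of 457 bp, Elf3 (141 bp), Krt8 (117 bp) and Rab25 (91 bp), a GTPase gene of epithelial recycling endosomes. Elf3 also had an MS or RS peak elsewhere at an end, and 4 of the 5 genes had none. None of the 5 sites had a WT or cKO sperm peak, beside 7.88% of all sperm-first sites. Of 50 genes of epididymal principal cells, the duct's main secretory cells, 1 had a site, Clu, which encodes clusterin. It is also on the list of 24 Sertoli and Leydig cell genes. Spi1, a blood cell transcription factor gene, was the 1 of 39 blood genes, and Cidec, a lipid droplet gene, the 1 of 10 adipocyte genes. None of 27 stromal and muscle or 16 endothelial genes had one.

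Over the genes and 10000 bp on either side, a distance chosen after the data were seen, the epithelial list held 20 sperm-first sites, or 9.86 per Mb, at 16 of its 40 genes. Elf3, Elf5 and Trp63, the gene of a basal cell transcription factor, had 2 sites each. Cdh1, which encodes the epithelial cadherin, Grhl2, an epithelial transcription factor gene, and the claudin gene Cldn8 had 1 each. Among the list's genes with 0 sites were Epcam, an epithelial adhesion gene, the keratin genes Krt5, Krt14, Krt18 and Krt19, and the clear cell genes Foxi1 and Atp6v1b1. All protein-coding genes held 2.66 per Mb. Of these 20665 genes, 3140 (15.2%) had a sperm-first site over the same span, beside 40% of the epithelial genes. Other sperm peaks numbered 1.97 per Mb at the epithelial genes and 4.20 at all genes. The principal cell list held 12 sperm-first sites, 6.32 per Mb, and 1 other sperm peak, and the adipocyte list 3 sites, 7.07 per Mb. Stromal, endothelial, blood, and Sertoli and Leydig lists held 2.85, 0.757, 2.66 and 2.08 per Mb, and the meiotic and spermatid lists 0.908 and 2.01. None of the 20 sites at epithelial genes was in the WT sperm list, beside 253 of the 3244 sites at all genes. Among the peaks without an MS or RS peak, cKO sperm had 0 and WT sperm 3 at these genes, 1.48 per Mb in WT, where all genes had 16 in cKO and 627 in WT, 0.514 per Mb. The WT values at blood, adipocyte, stromal and principal cell genes were 2.00, 2.36, 1.14 and 0.527 per Mb, from 3, 1, 2 and 1 peaks. At gene ends, WT sperm had such a peak at 1 epithelial gene, Prss8, a serine protease gene, and at 2 blood genes, H2-Aa, a class II antigen presentation gene, and S100a8, a calcium-binding protein gene of neutrophils. In cKO sperm no gene of these lists had one. The part of these cell types in the sperm-first sites was not tested.

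**Figure D4:**
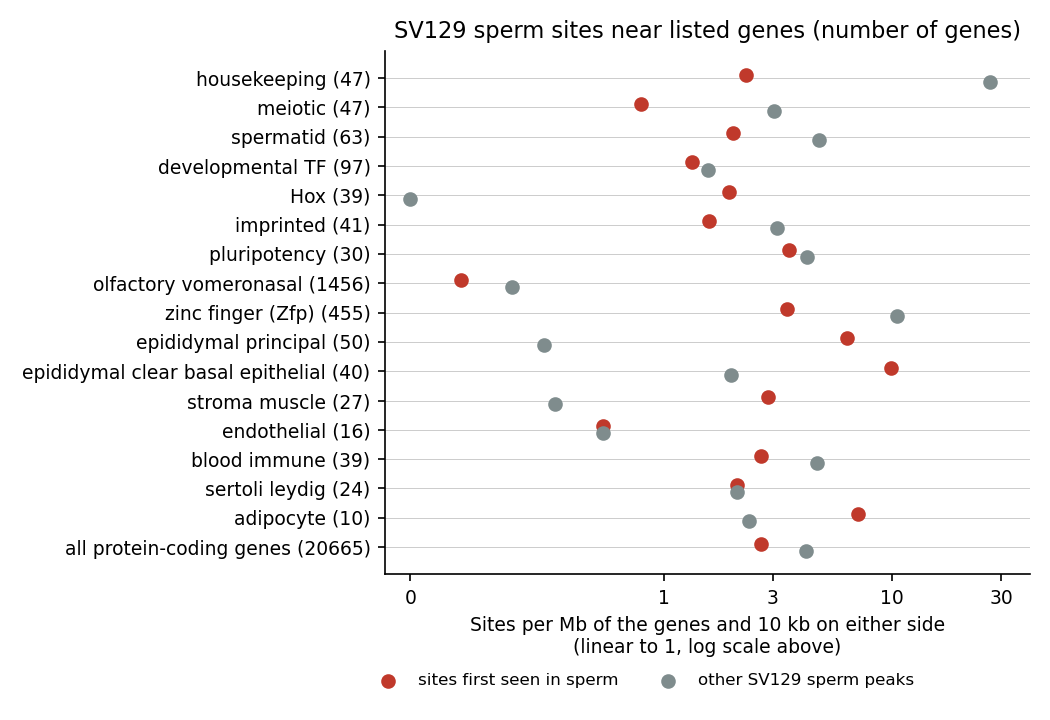
Sperm-first sites (red) and other SV129 sperm peaks (grey) per Mb of each listed gene set, counted over the genes and 10000 bp on either side, with the number of genes in brackets. The axis is linear to 1 and logarithmic above. Epithelial genes hold 9.86 sperm-first sites per Mb, against 2.66 for all protein-coding genes.

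Promoters with a sperm-first site were closer in base content to promoters in general than to those with an other sperm peak. In 243 promoter windows of 300 bp with such a site and no other sperm peak, median GC content was 55.3% and the median number of CpG dinucleotides 8. Windows with both kinds of peak were counted only with those of other sperm peaks, here and for the motifs. In 4323 windows with an other sperm peak these were 62.7% and 24, and in all 31396 windows 53.0% and 7. The AP-1 site TGANTCA was in 12.8% of windows with a sperm-first site (interval 9.13 to 17.5), 3.93% of those with an other sperm peak and 7.84% of all. The GC box GGGCGG was in 40.7%, 74.8% and 36.0%, in the same order, the ETS site CCGGAAG in 8.23%, 24.5% and 9.0%, and the NRF1 site GCATGCGC in 0.412%, 7.86% and 2.70%. The CTCF core AGGNGGC was in 39.9%, 44.1% and 29.4%, the CCAAT box in 42.8%, 51.3% and 37.3%, the E-box CANNTG in 73.7%, 58.8% and 72.2%, TATAAA in 7.41%, 4.42% and 13.6%, and the CRE TGACGTCA in 2.06%, 4.12% and 1.83%. Both strands were searched and windows of 1 gene, and matches of different motifs, can overlap.

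Nucleosome calls preceded sperm in a smaller share of sperm-first sites than of other sperm peaks, yet covered them more than the autosomes at large. A call of 150 bp in any MS, RS or ES list of the 3 backgrounds overlapped 1677 sites (34.2%), and 3221 (65.8%) had none. Of the other sperm peaks 5244 (93.7%) had one. These calls covered 22.5% of the bases of sperm-first sites and 8.64% of autosomal bases, a ratio of 2.60. For other sperm peaks the share of bases was 89.9% and the ratio 10.4. In SV129 the share of sperm-first sites with a call was 3.67% for MS calls, 5.63% for RS calls, 9.92% for ES calls and 2.33% for sperm calls. Other sperm peaks had shares of 76.8%, 69.0%, 20.5% and 13.3%. In the SV129 ES list the difference was -10.6 points (interval -11.9 to -9.22), and 15.6% of all autosomal sperm peaks had a call. The MS and RS calls of SV129 and WT come from libraries that the rule used through their peaks, so they are given as descriptions.

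The shares before sperm and their order by stage varied between backgrounds. In cKO they were 6.70% at MS, 3.35% at RS and 7.64% at ES, and in WT 6.23%, 3.00% and 6.84%. RS thus had the lowest of the 3 shares in cKO and WT, and MS in SV129. In sperm 404 sites (8.25%) had a call in the cKO list, against 27 (0.551%) in the WT list. Other sperm peaks had 36.3% and 4.34%. The cKO sperm list covers 28.9 Mb and the WT sperm list 0.678 Mb, and list length and genotype cannot be told apart in these counts. Relative to the bases covered across autosomes, sperm-first sites were covered 4.07 times as much in cKO sperm and 9.09 times in WT sperm. For other sperm peaks these ratios were 17.5 and 135. In SV129 the MS ratio was 3.37, that for RS 3.85, that for ES 3.09 and the sperm ratio 34.2. Other sperm peaks had ratios of 105, 68.2, 6.84 and 209, in the same order. The SV129 sperm calls cover 0.0424% of autosomal bases and overlapped 114 sperm-first sites.

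Of the sites with an ES call, 875 had it in 1 background, 133 in 2 and 18 in all 3. These are 17.9%, 2.72% and 0.367% of sperm-first sites, against 29.1%, 10.0% and 3.91% of other sperm peaks. One site, chr11:3162655-3162754 in Sfi1, a centrin-binding protein gene, had calls in all 9 lists before sperm and ES peaks in all backgrounds. It lies between bases 3000000 and 3500000 of its chromosome, the stretch that holds 37 sperm-first sites, 9 of them also in cKO sperm. Among sites at gene ends 12.2% had an SV129 call at MS, 15.4% at RS and 13.8% at ES, against 2.63%, 4.71% and 9.64% in gene bodies. The 366 sites also in WT sperm had a call before sperm in 35.2%, and the remaining ones in 34.2% (difference 1.09 points, interval -3.83 to 6.30).

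**Figure D5:**
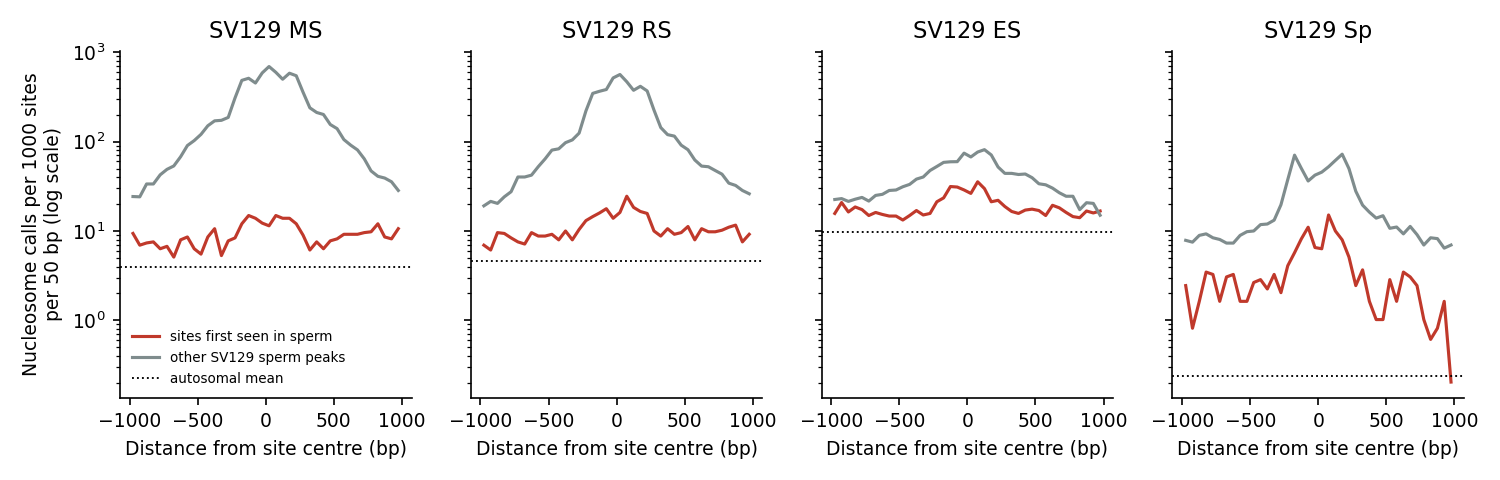
Centres of SV129 nucleosome calls per 1000 sites per 50 bp, on a log scale, by distance in bp from the centre of sperm-first sites (red) and other SV129 sperm peaks (grey), with the autosomal mean dotted. At ES sperm-first sites average 30.4 within 100 bp of the centre and 16.4 at 500 to 1000 bp, with an autosomal mean of 9.68.

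Around sperm-first sites the SV129 call density within 100 bp of the centre was 13.1 in the MS list, 18.1 in the RS list, 30.4 in the ES list and 9.75 in the sperm list, per 1000 sites and 50 bp. At 500 to 1000 bp it was 8.34, 9.06, 16.4 and 2.03, and the autosomal means were 3.94, 4.65, 9.68 and 0.241. Calls were denser near the centre than in the flanks at each stage, and the flanks lay above the autosomal mean. Around other sperm peaks the centre held 582, 483, 69.5 and 44.1 in the same lists.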

How the data were processed

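The deposited files are lists of genomic intervals, 1 list of subnucleosome peaks and 1 of nucleosome calls per group. Per the submitters' processing notes the build was GRCm38 (mm10), and the tools listed are MACS2 2.1.0.20140616 and STAR 2.5.2a, with no role named. The sources used here do not state how fragments were classed or libraries combined. The score column the authors deposited is 0 throughout the SV129 subnucleosome lists, is used only to rank WT and cKO peaks within a list, and has no stated scale. Its meaning in the nucleosome lists is not stated and it was not used.

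Sites were counted as shared from 1 bp of overlap. Location used the site centre, genes used overlap with windows of 500 bp at both annotated ends, and positions came from RefSeq GRCm38.p6. Intervals were computed in Python 3.11.15 with numpy 2.4.6, pandas 2.3.3 and scipy 1.17.1, after checks on simulated intervals. Named genes were those of each list with a site at an end (up to 4 per list by site width, up to 6 for markers of other cell types), plus the genes nearest the 5 widest sites and the 3 densest groups. A further rule, for genes with a site at an end that is in all 3 sperm lists, found none. The sites and the gene lists were chosen with earlier results of these data known. The alternatives were other lists in the rule, other overlaps, windows, widths and scores.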

Additional observations from a re-analysis of the deposited data

Results flagged for a closer look

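The rule was confined to autosomes. On the X chromosome, which it left out, 28 of 120 SV129 sperm peaks overlapped no MS or RS peak, 23.3% (interval 16.7 to 31.7), against 46.7% on the autosomes. They numbered 0.164 per Mb, against 1.99 on the autosomes. Sperm peaks of both kinds were few on X, 120 in all, while chromosome 19, the shortest autosome, held 117 other sperm peaks alone. Low density on X was therefore not limited to peaks without an MS or RS peak. A WT sperm peak was found at 0 of the 28, beside 7.47% of the autosomal sites, and with so few sites 0 is near that share. The X count was marked because it comes from data outside the comparisons above.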

How the results depend on the processing

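The number of sperm-first sites was 4898, and from 4648 to 5210 under the other rules. With the SV129 MS and RS lists alone, the share in cKO sperm was 0.998% and that at gene ends 6.78%; with the ES lists added, the cKO share was 0.145%. Sites at least 500 bp from an earlier peak had 4.32% at gene ends. The wider 50% of sites had 9.95% in WT sperm and 11.1% with an SV129 ES call. An overlap of at least 50% of the site gave 5.21% in WT sperm, and the upper 50% of WT peaks by score 2.57%. Windows of 250 and 1000 bp gave 3.70% and 7.59% at gene ends, and a site centre inside a call gave 5.98% at ES. The stricter overlap, the shorter or longer windows, the site centre and the shorter WT list by score move these shares by their own construction. Adding the ES lists takes out the 16 of 23 sites in cKO sperm that had an ES peak, which leaves 7. The limit of 500 bp takes out 250 sites, of which 45 were at gene ends. The cause of the remaining moves, with width included, was not tested. Counts of genes with a site at an end ran from 205 to 411, against 280. Restricting to sites also in WT sperm, a choice made after the data were seen, gave 5.19% at gene ends and 9.56% with an ES call.

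No paired analysis was possible because each group has 1 deposited list, with no values per replicate, and leaving out a replicate was not possible for the same reason. Depth is unknown, the SV129 sperm list stands for 6 libraries and the others for 2, and strain, depth and library number cannot be told apart in the shares between sperm lists.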
